A study of Mus musculus with 4 samples.

Results

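The genes described are 8 that are characteristic of vascular endothelium: *Kdr*, *Flt1*, *Pecam1*, *Cdh5*, *Tek*, *Tie1*, *Esam* and *Emcn*. They were picked by name among the 55602 genes of the count tables, and each was found there once. The question was whether the level of *Kdr* in neural cultures moved together with the other genes that vascular cells use, library by library.

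RNA was sequenced from 4 cultures of mouse embryonic stem cells (ESCs) taken through neural differentiation and harvested at day 12. The wild-type line, JB1, is a male hybrid of a JF1 mother and a C57BL/6 father, so that reads over a strain difference can be assigned to a parental allele. The other genotype was the *Zfp57*-/- line made from JB1, which is a single line, and so genotype and line cannot be told apart. ZFP57 is a zinc finger protein that keeps DNA methylation at imprinted loci. There were 2 wild-type and 2 *Zfp57*-/- libraries. Both genotypes were held as ESCs in 1i medium with 3 µM CHIR99021, and both received 1 µM cyclopamine, an inhibitor of Hedgehog signalling, from day 2 to day 10 of differentiation in DDM medium. The study's methods call the libraries of a genotype biological duplicates, and the p-values measure the spread between these libraries of 1 line each.

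Endothelial cells line blood vessels and are told apart from other cells by a shared set of surface proteins. Vascular endothelial growth factor signals through the receptor encoded by *Kdr* (VEGFR2), while the product of *Flt1* (VEGFR1) binds the ligand with high affinity and signals weakly. Angiopoietins signal through *Tek* (TIE2), and *Tie1* encodes its co-receptor, which has no well defined ligand of its own. *Cdh5* (VE-cadherin), *Pecam1* (CD31) and *Esam* encode proteins of the junctions between endothelial cells, and *Emcn* encodes endomucin, a sialomucin of venous and capillary endothelium. Several of these genes are also used elsewhere: *Kdr* marks early mesodermal progenitors, *Flt1* is made by trophoblast, and *Pecam1* is present on mouse ESCs.

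RefSeq promoter windows (build GRCm38.p6, the build of the count tables) were at hand for 5 of the 8 genes: *Kdr*, *Flt1*, *Tek*, *Tie1* and *Emcn*. The 250 bases before the start of transcription are shown for *Kdr* and *Tek*, which moved in opposite directions between the genotypes, and for *Flt1*, the closest relative of *Kdr*. Capitals mark the core that ETS factors bind, GGAA read on either strand (so that TTCC is also marked), and the hexamer bound by ZFP57, TGCCGC or GGCCGC on either strand. No marked ETS core overlaps a marked hexamer.
Kdr (chr5:75978456-75978705, minus strand): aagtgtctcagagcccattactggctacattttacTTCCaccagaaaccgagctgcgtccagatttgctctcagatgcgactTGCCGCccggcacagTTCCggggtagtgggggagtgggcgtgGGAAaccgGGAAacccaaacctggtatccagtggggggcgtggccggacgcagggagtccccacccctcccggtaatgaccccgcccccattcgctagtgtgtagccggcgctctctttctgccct
Flt1 (chr5:147726012-147726261, minus strand): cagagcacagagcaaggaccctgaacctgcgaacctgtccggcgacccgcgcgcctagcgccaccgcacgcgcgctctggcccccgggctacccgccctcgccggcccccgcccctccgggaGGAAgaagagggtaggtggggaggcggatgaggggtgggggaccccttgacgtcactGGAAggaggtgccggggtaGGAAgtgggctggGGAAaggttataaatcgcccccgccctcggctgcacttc
Tek (chr4:94739039-94739288, plus strand): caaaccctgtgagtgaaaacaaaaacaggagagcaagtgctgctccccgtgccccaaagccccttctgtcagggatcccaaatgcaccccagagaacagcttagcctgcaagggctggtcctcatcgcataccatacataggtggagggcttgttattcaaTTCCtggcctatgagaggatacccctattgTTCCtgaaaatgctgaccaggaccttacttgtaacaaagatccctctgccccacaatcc

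The *Kdr* window holds 4 ETS cores, the *Flt1* window 4 and the *Tek* window 2, and 93.4% of the 32851 RefSeq windows of the same length hold at least 1. The ZFP57 hexamer was found in the *Kdr* window, where it begins 168 bases before the start, and in none of the other 4 windows. It is present in 21.6% of all windows. The 3 printed windows also differ in CpG content, with 16 CpGs in that of *Kdr*, 23 in that of *Flt1* and 2 in that of *Tek*, beside a median of 6 over all windows. These matches describe the letters only.

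The libraries held from 7663520 to 10337082 fragments assigned to genes. *Zfp57* itself had 392 and 249 reads in the wild-type libraries and 158 and 144 in the *Zfp57*-/- libraries (log2 fold change -1.19, edgeR adjusted p = 0.0225), so that reads of the targeted gene remained. These reads were not placed against the deleted part of the gene. The wild-type libraries differed from each other more than the *Zfp57*-/- libraries did, with a chi-square per degree of freedom of 34.8 over the genes against 6.97. Neural genes were read in every library. In *Zfp57*-/- cells 7 of 12 neural progenitor genes and 9 of 12 neuronal genes were called lower, beside 14.6% of all genes tested. Of the pluripotency genes 13 of 14 were called higher, beside 13% of all genes tested. No call went in the other direction in these lists.

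All 8 endothelial genes were detected, at levels that differed over a wide range. The level per length (FPKM, fragments per kilobase of exons, scaled to library size and calculated here) averaged 12.4 over the 4 libraries for *Flt1*, 9.99 for *Cdh5*, 8.36 for *Tek*, 3.84 for *Esam*, 2.45 for *Kdr*, 1.04 for *Pecam1*, 0.417 for *Emcn* and 0.124 for *Tie1*. The ranges over the libraries overlapped between each gene and the next in this order. *Kdr* was therefore neither the strongest nor the weakest of the genes, and *Tie1*, *Emcn* and *Pecam1* were read in few fragments.

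**Figure D1:**
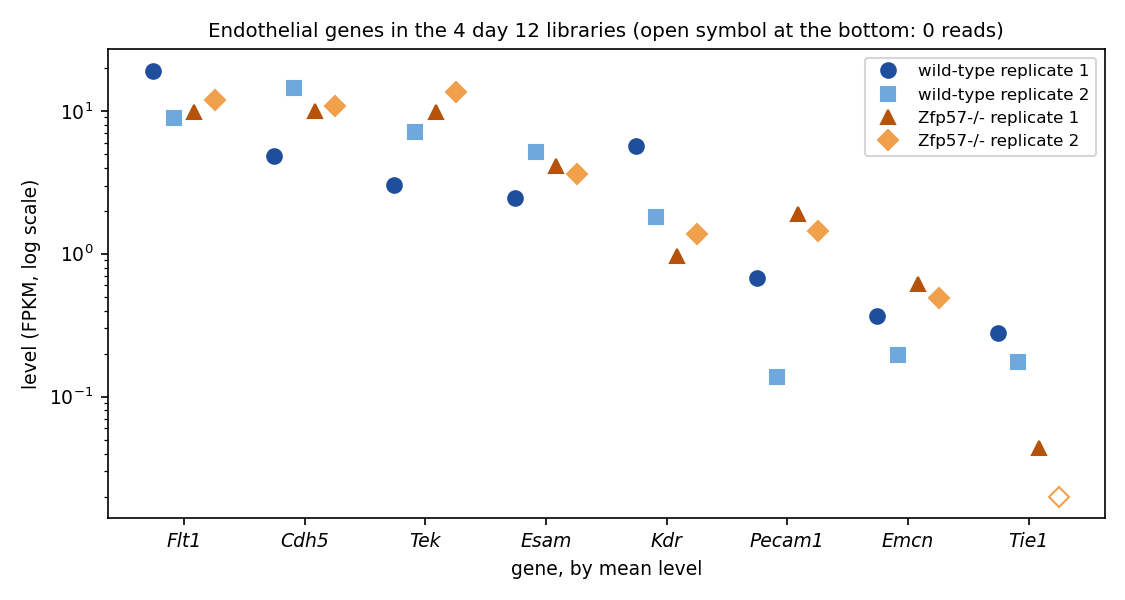
Level of the 8 endothelial genes in FPKM (y axis, log scale) in each of the 4 libraries (symbols), with genes ordered by their mean level. *Flt1*, *Cdh5* and *Tek* lie highest and *Tie1* lowest, and the 2 wild-type libraries (circle and square) lie apart in opposite directions for *Kdr* and *Cdh5*.

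The summed level of the 8 genes was 36.4 and 37.9 FPKM in wild-type and 37.1 and 43.2 FPKM in *Zfp57*-/- cells. Without *Flt1*, the sum was lowest in wild-type replicate 1, at 17.3 FPKM, against 28.9 in wild-type replicate 2 and 27.4 and 31.3 in the *Zfp57*-/- libraries. CPM are counts scaled to library size, with no division by length. By CPM the sum of all 8 genes, *Flt1* included, was highest in wild-type replicate 1, at 359 against 248, 256 and 304. *Flt1* alone gave 258 CPM there, against 121, 132 and 161 in the other libraries. The makeup of the sum differed between the libraries. *Flt1* gave 52.5% of it in wild-type replicate 1 and from 23.6 to 27.6% in the other libraries. *Kdr* gave 15.6% in wild-type replicate 1, 4.77% in wild-type replicate 2, and 2.59 and 3.17% in the *Zfp57*-/- libraries. *Cdh5* gave the smallest share, 13.2%, in wild-type replicate 1 and the largest, 38.1%, in wild-type replicate 2.

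Between the genotypes, *Kdr* fell and *Pecam1* and *Tek* rose in *Zfp57*-/- cells, and the other 5 genes did not pass the test. Thus 3 of the 8 genes passed (edgeR quasi-likelihood test, adjusted p under 0.05), where 27.6% of all 19995 genes tested did. In the lower direction it was 1 gene, with 14.6% of all genes called lower, and in the higher direction 2 genes, with 13% of all genes called higher. The genotype difference of *Kdr*, the 1 lower gene, was already known when the 8 genes were listed, so its place in these counts was known beforehand. The median log2 fold change of the 8 genes was 0.05 and that of all genes tested -0.01.

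Of the VEGF receptors, *Kdr* had 414 reads in wild-type replicate 1 and 171 in wild-type replicate 2, against 81 and 121 reads in the *Zfp57*-/- libraries. Wild-type replicate 1 stood highest by far, and the groups did not overlap. After normalization the means were 318 ± 233 (SD, n = 2) and 99.1 ± 24.5 (SD, n = 2) normalized counts, a fall of 3.19-fold (log2 fold change -1.67, SE 0.46, edgeR adjusted p = 0.0232). Without wild-type replicate 1 the log2 fold change was -0.66, and without wild-type replicate 2 it was -2.28. The direction was therefore shared by both wild-type libraries and the size was not. With 1 wild-type library left, a test rests on the spread of the *Zfp57*-/- pair alone, which was the smaller.

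*Flt1* had 2086 and 1265 reads in the wild-type libraries, against 1227 and 1574 in those of *Zfp57*-/- cells. As for *Kdr*, wild-type replicate 1 was the highest, but after normalization wild-type replicate 2 was below both *Zfp57*-/- libraries, so that the groups overlapped (log2 fold change -0.37, SE 0.31, edgeR adjusted p = 0.413). The sign turned without wild-type replicate 1 (0.25), and without wild-type replicate 2 the value was -0.82.

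Of the angiopoietin receptors, *Tek* had 115 and 348 reads in the wild-type libraries, against 432 and 623 in those of *Zfp57*-/- cells. Here wild-type replicate 1 was the lowest library, and the groups did not overlap. The mean rose from 223 ± 126 to 518 ± 115 normalized counts (SD, n = 2 each), 2.30-fold (log2 fold change 1.20, SE 0.35, edgeR adjusted p = 0.0286). The call was lost without *Zfp57*-/- replicate 2 (log2 fold change 0.97), and the value was 1.95 without wild-type replicate 2 and 0.70 without wild-type replicate 1. *Tie1*, which acts with *Tek* in endothelium, had 11 and 9 reads in the wild-type libraries, against 2 and 0 in those of *Zfp57*-/- cells. The 20 wild-type against 2 *Zfp57*-/- reads gave a ratio of 10.3 after scaling, with an exact 95% counting interval from 2.5 to 90.9, and the test did not pass (edgeR adjusted p = 0.0659). It passed when genes of low count were kept (edgeR adjusted p = 0.038).

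Of the junction proteins, *Pecam1* had 34 and 9 reads in the wild-type libraries, against 110 and 88 in those of *Zfp57*-/- cells. Both *Zfp57*-/- libraries stood above both wild-type libraries, and wild-type replicate 2 was the lowest. The mean went from 23.9 ± 22.3 to 97.9 ± 18.7 normalized counts (SD, n = 2 each), 4.21-fold higher (log2 fold change 2.07, SE 0.59, edgeR adjusted p = 0.0276). The call was lost without *Zfp57*-/- replicate 1 (log2 fold change 1.85, edgeR adjusted p = 0.076). The log2 fold change was 3.55 without wild-type replicate 1 and 1.3 without wild-type replicate 2.

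*Cdh5*, the cadherin of endothelial junctions, had 163 and 635 reads in the wild-type libraries, against 389 and 444 in those of *Zfp57*-/- cells. The *Zfp57*-/- libraries lay between the wild-type libraries (log2 fold change 0.10, SE 0.40, edgeR adjusted p = 0.876). Each wild-type library on its own gave a log2 fold change in a different direction, -0.50 without wild-type replicate 1 and 1.11 without wild-type replicate 2. *Esam* had the same arrangement, with 57 and 155 reads in the wild-type libraries, against 109 and 102 in those of *Zfp57*-/- cells (log2 fold change 0.01, SE 0.36, edgeR adjusted p = 0.990). *Emcn* had 16 and 11 reads in the wild-type libraries, against 31 and 26 in those of *Zfp57*-/- cells. Its groups did not overlap, but the test did not pass (log2 fold change 0.99, SE 0.59, edgeR adjusted p = 0.238). Without wild-type replicate 1 the log2 fold change was 1.47.

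With a wild-type library left out, the number of the 8 genes past the threshold was 5 without replicate 1, where 42.6% of all genes passed, and 6 without replicate 2, where 51.8% did. With *Actb* as the scale the median of all genes moved to -0.68, and 14% of the genes past the threshold were higher in *Zfp57*-/- cells instead of 47.2%. On that scale 1 of the 8 genes passed, with 17.4% of all genes: *Kdr* (log2 fold change -2.59, or -1.91 once that median is subtracted, edgeR adjusted p = 9.24e-05). *Tek* then had a log2 fold change of 0.72 (1.40 after subtraction) and *Pecam1* of 1.14 (1.82 after subtraction). *Actb* itself had 14634 reads in wild-type replicate 1 and from 35070 to 39257 in the others.

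**Figure D2:**
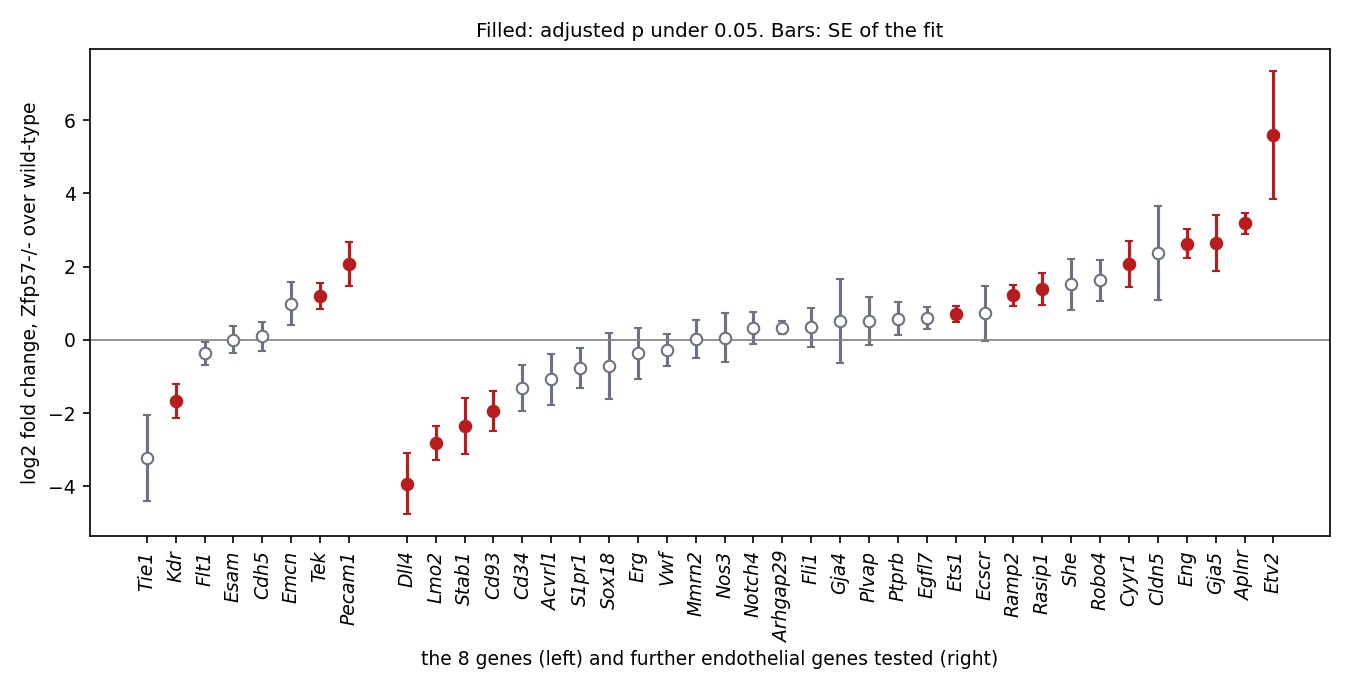
Log2 fold change between the genotypes (y axis) with its SE (bars, 2 libraries per genotype) for the 8 genes on the left and the 31 further endothelial genes tested on the right, filled in red where the adjusted p was under 0.05. *Kdr* lies below 0 with *Lmo2* and *Dll4*, and *Tek* and *Pecam1* above 0 with *Aplnr* and *Eng*. The value of *Etv2*, with 0 wild-type reads, depends on the prior count of the fit.

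The libraries of the wild-type genotype separated the 8 genes into those higher in replicate 1 and those higher in replicate 2. Normalized counts of *Pecam1* were 4.90-fold higher in replicate 1, those of *Kdr* 3.14-fold, of *Flt1* 2.14-fold, of *Emcn* 1.89-fold and of *Tie1* 1.59-fold. In the other direction, *Cdh5* was 3.00-fold, *Tek* 2.33-fold and *Esam* 2.10-fold higher in replicate 2. Within the *Zfp57*-/- genotype the differences were smaller for each of the 7 genes with reads in both libraries, and *Kdr*, the gene with the widest, was 1.42-fold higher in replicate 2.

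A like split was present in the primitive endoderm list, the genes of an early extraembryonic tissue that makes basement membrane. Of its 20 genes, 16 were higher in wild-type replicate 2 and 4 in replicate 1, with a median ratio of replicate 2 over replicate 1 of 1.46, where the median of all genes was 0.984. The transcription factor genes *Gata4*, with 542 and 1669 wild-type reads, *Gata6*, with 357 and 1167, *Sox17*, with 589 and 1479, and *Foxa2*, with 173 and 520, were all lower in replicate 1. These genes had 1400 and 2041, 818 and 1129, 1269 and 1784, and 444 and 707 reads in the *Zfp57*-/- libraries, and none passed the test between the genotypes. *Ttr*, the transthyretin gene of the same list, went the other way, with 933 and 276 wild-type reads and 181 and 268 *Zfp57*-/- reads. The split was not particular to this list. Of 17 early and cardiac mesoderm genes tested, 13 were higher in wild-type replicate 1 and 4 in replicate 2, with a median ratio of 0.415. The part of primitive endoderm or mesoderm cells in the endothelial values was not tested.

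**Figure D3:**
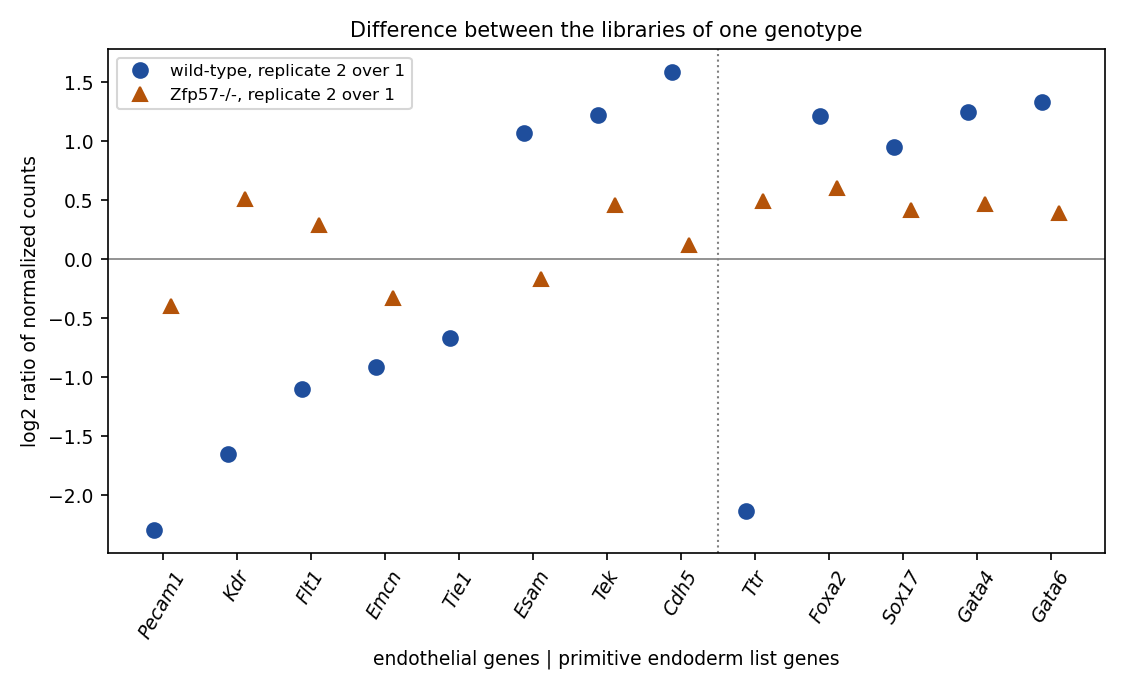
Log2 ratio of normalized counts of replicate 2 over replicate 1 (y axis) within the wild-type (circles) and *Zfp57*-/- (triangles) genotypes, for the 8 endothelial genes and, right of the dotted line, 5 primitive endoderm list genes. *Cdh5*, *Tek* and *Esam* lie above 0 in wild-type with *Gata4* and *Gata6*, *Kdr* lies below 0 with *Ttr*, and *Tie1* has no triangle because one library had 0 reads.

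The level of *Kdr* was set against the sum of the other 7 genes within each library. The log2 ratio of FPKM was -2.44 and -4.32 in the wild-type libraries and -5.23 and -4.93 in the *Zfp57*-/- libraries. It was higher in both wild-type libraries, but the wild-type pair differed by more than the nearest wild-type and *Zfp57*-/- libraries did. The mean went from -3.38 ± 1.33 to -5.08 ± 0.21 (SD, n = 2 each), a difference of -1.70, and with 2 libraries against 2 an exact two-sided permutation test cannot give a p under 0.33. Without wild-type replicate 1 the difference was -0.76 and without wild-type replicate 2 it was -2.64.

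The pattern of *Kdr* over the 4 libraries was compared with that of 11879 other genes tested with a mean of at least 5 CPM, as the root mean square difference of centred log2(CPM + 1). The 5 nearest genes were *mt-Tp*, a mitochondrial tRNA gene, at 0.07, *Enpp2*, which encodes the secreted enzyme autotaxin, at 0.07, *Lama4*, a laminin chain of vascular basement membrane, at 0.17, *E230020D15Rik* at 0.18 and *Abhd18* at 0.20. *Enpp2*, for example, had 247 and 109 reads in the wild-type libraries, against 53 and 79 in those of *Zfp57*-/- cells. *Ttr* followed as the sixth gene, with a difference of 0.20. Others of the primitive endoderm list were far from *Kdr*, with *Sox17* at rank 10429, *Gata6* at 10680, *Gata4* at 10954 and *Foxa2* at 10983.

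None of the other 7 endothelial genes was among the 5 genes nearest to *Kdr*. *Tie1* stood at rank 795 and *Flt1* at rank 965 in that order, with differences of 0.57 and 0.59, and *Emcn*, which like *Tie1* is below the minimum level of the ranked genes, stood at rank 8132, *Esam* at 8921, *Cdh5* at 10672, *Tek* at 11358 and *Pecam1* at 11361. Likeness over 4 libraries rests on 4 points that share their scaling, and is a description.

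Further genes of endothelium were taken as a list of 38, of which 31 had enough reads to be tested. In *Zfp57*-/- cells 8 rose, 4 fell and 19 did not pass the test, beside 13% of all genes called higher and 14.6% called lower, with a median log2 fold change of 0.52. The list's summed level was 231 and 221 CPM in the wild-type libraries, against 319 and 342 CPM in those of *Zfp57*-/- cells. The number past the threshold, 12, was 3 without *Zfp57*-/- replicate 1, with 14.8% of all genes called, 4 without *Zfp57*-/- replicate 2, with 15.6%, and 5 with *Actb* as the scale.

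Among the genes that rose, *Aplnr*, the apelin receptor, went from 35 and 43 reads to 292 and 449 (log2 fold change 3.19, edgeR adjusted p = 4.47e-05). *Eng*, a co-receptor for TGF-beta family ligands, went from 15 and 16 to 95 and 105 reads (2.63, edgeR adjusted p = 0.00109), and *Ramp2*, which partners the adrenomedullin receptor, from 47 and 75 to 136 and 154 (1.22, edgeR adjusted p = 0.0123). *Gja5*, a gap junction gene of arteries, had 2 and 4 reads in the wild-type libraries, against 17 and 23 in those of *Zfp57*-/- cells (2.66, edgeR adjusted p = 0.0278), a call that was lost with DESeq2 (adjusted p = 0.0667), without either *Zfp57*-/- library and with *Actb* as the scale. *Ramp2* was lost without either *Zfp57*-/- library (edgeR adjusted p = 0.106 and 0.159) and, like *Eng*, with *Actb* as the scale. *Aplnr* and *Eng* are also used in mesoderm.

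Of the genes that fell, *Lmo2*, a partner of haematopoietic and endothelial transcription factors, went from 91 and 85 to 9 and 17 reads (log2 fold change -2.82, edgeR adjusted p = 0.00178). *Dll4*, a Notch ligand of arterial and tip cells, had 24 and 23 reads in the wild-type libraries, against 1 and 2 in those of *Zfp57*-/- cells, a ratio of 16.1 with an exact 95% counting interval from 5.19 to 81.0 (edgeR adjusted p = 0.0068). *Cd93* went from 78 and 41 to 18 and 15 reads (-1.95, edgeR adjusted p = 0.0255) and *Stab1*, a scavenger receptor, from 41 and 16 to 7 and 5 (-2.35, edgeR adjusted p = 0.0453). The calls of *Cd93* and *Stab1* were lost without wild-type replicate 1 and without either *Zfp57*-/- library, and that of *Dll4* without *Zfp57*-/- replicate 1 (edgeR adjusted p = 0.0736). As among the 8 genes, members of the list passed the test in both directions.

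The list was not read evenly, and some genes of mature endothelium were at or near 0 while others were not. *Cldn5*, the tight junction claudin of vessels, had 2 and 0 reads in the wild-type libraries, against 7 and 5 in those of *Zfp57*-/- cells. *Clec14a* had 3 reads in wild-type replicate 1 and 0 in the other 3 libraries, and *Lyve1*, the lymphatic marker, 1 read in *Zfp57*-/- replicate 2 and 0 in the rest. *Icam2* had 2 and 3 against 0 and 3 reads and *Sox18* 8 and 8 against 8 and 2. In all, 6 of the 38 genes had at most 3 reads in every library. *Erg*, an ETS factor of endothelium, had 13 and 13 against 7 and 14 reads, *Vwf*, the gene of von Willebrand factor, 30 and 74 against 41 and 44, *Egfl7* 65 and 138 against 151 and 156, *Robo4* 15 and 10 against 41 and 41, and *Notch4* 26 and 41 against 43 and 42. *Etv2*, the ETS factor of the earliest vascular and blood progenitors, had 0 reads in both wild-type libraries and 5 and 7 in the *Zfp57*-/- libraries. Against a floor of 3 reads over the wild-type group the ratio was 3.89, with counting error left out. It passed with edgeR (adjusted p = 0.0431) and not with DESeq2 (adjusted p = 0.130).

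The ligands and co-receptors of the same pathways were a list of 12, all tested. *Vegfa*, the main ligand of the *Kdr* product, fell from 1754 and 1141 reads in the wild-type to 687 and 881 in the *Zfp57*-/- libraries (log2 fold change -0.99, SE 0.30, edgeR adjusted p = 0.0339), and the other 11 did not pass, beside 14.6% of all genes called lower. The call was lost without *Zfp57*-/- replicate 1 (-0.85, edgeR adjusted p = 0.16), and with a library left out the log2 fold change ran from -1.41 without wild-type replicate 2 to -0.44 without wild-type replicate 1. *Vegfa* was also higher in wild-type replicate 1, like *Kdr*, and 11 of the 12 genes were. *Angpt1*, a ligand of the *Tek* product, had 134 and 100 against 129 and 129 reads, and the co-receptor *Nrp1* 353 and 395 against 554 and 575 (log2 fold change 0.54, edgeR adjusted p = 0.0636). The median of the list was 0.02.

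Other cell types that a vascular sample could hold were read through their own lists. Of 16 blood genes 7 had enough reads to be tested and 2 were higher in *Zfp57*-/- cells, beside 13% of all genes. They were *Runx1*, with 69 and 99 against 274 and 293 reads (log2 fold change 1.72, edgeR adjusted p = 0.000625), and *Gata1*, with 0 and 0 against 6 and 5. The ratio of *Gata1* to the same floor was 3.56, with counting error left out. The count was 0 with *Actb* as the scale and 1 with DESeq2, upper-quartile scaling, the filterByExpr filter or either *Zfp57*-/- library left out, where *Gata1* was not called or not tested. Globin genes and *Ptprc*, the pan-leukocyte CD45 gene, had at most 6 reads in any library, and the list summed to 25.4 and 19.7 CPM in the wild-type libraries, against 43.8 and 43.0 CPM in those of *Zfp57*-/- cells.

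Of 10 mural cell genes, those of the pericytes and smooth muscle around vessels, 4 rose, beside 13% of all genes. They were the contractile and cytoskeletal genes *Tagln* (log2 fold change 2.83, edgeR adjusted p = 0.00109), *Acta2* (2.55, edgeR adjusted p = 0.00131), *Cnn1* (3.28, edgeR adjusted p = 0.00234) and *Des* (2.30, edgeR adjusted p = 0.00456), which other contractile and mesodermal cells use too. With *Actb* as the scale 2 of them passed, without *Cnn1* (edgeR adjusted p = 0.0674) and *Des* (edgeR adjusted p = 0.205). *Acta2* had 311 and 1161 against 4162 and 4231 reads. The pericyte genes *Pdgfrb*, with 267 and 200 against 235 and 229 reads, and *Rgs5*, with 61 and 53 against 81 and 93, did not pass.

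Of 18 genes of early and cardiac mesoderm 17 were tested, 7 rose and 2 fell, beside 13% and 14.6% of all genes. The number that rose was 4 with *Actb* as the scale, where 17.4% of all genes passed in either direction. It also moved with a library left out. *Eomes* went from 13 and 7 to 329 and 433 reads (log2 fold change 5.17, edgeR adjusted p = 1.41e-05) and *T* (brachyury) from 117 and 345 to 985 and 1215 (2.27, edgeR adjusted p = 0.000857), with *Tnnt2* (3.15) and *Tcf15* (2.88) also higher, while *Isl1* (-1.90) fell. *Tbx5* had 15 and 7 against 0 and 1 reads, a ratio of 22.7 with an exact 95% counting interval from 3.66 to 935, and its call (edgeR adjusted p = 0.0333) was lost with DESeq2 (adjusted p = 0.0733) and without *Zfp57*-/- replicate 1 (edgeR adjusted p = 0.175). *Kdr*, itself a gene of early mesoderm, moved against the direction of the 7 genes of this list that rose and with that of the 2 that fell. Of the 20 primitive endoderm genes 5 rose, among them *Cubn* (2.32) and *Dab2* (1.17), and *Sox7* fell (-0.98), beside 13% and 14.6% of all genes. The number of them that rose was 1 with *Actb* as the scale. It also depended on which library was left out, as did the share of all genes that passed. *Sox7* was lost without either *Zfp57*-/- library. The pluripotency list had a summed level of 85.3 and 160 CPM in the wild-type against 1946 and 1808 CPM in the *Zfp57*-/- libraries. The part of each of these cell types in the values of the 8 genes was not tested, and in bulk RNA fewer cells of a type and less RNA per cell cannot be told apart.

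Reads over a difference between JF1 and C57BL/6 gave the level of each allele. The difference of the allelic balance between the genotypes could be tested for 4 of the 8 genes, each of which reached 10 allelic reads in all libraries: *Kdr*, *Flt1*, *Tek* and *Esam*. *Kdr* passed the test, 1 of the 4, where 15.2% of the 10091 genes tested did.

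For *Kdr*, the maternal allele gave 77 of 189 allelic reads in wild-type replicate 1, a share of 0.407 (95% Wilson interval 0.340 to 0.479), and 42 of 89 in wild-type replicate 2, a share of 0.472 (0.372 to 0.575). It gave 25 of 33 reads in *Zfp57*-/- replicate 1, a share of 0.758 (0.590 to 0.872), and 39 of 60 in *Zfp57*-/- replicate 2, a share of 0.650 (0.524 to 0.758). The paternal allele thus gave more reads in wild-type and fewer in *Zfp57*-/- cells, with a mean maternal share of 0.440 ± 0.046 against 0.704 ± 0.076 (SD, n = 2 each). The log2 ratio of maternal to paternal reads was higher by 1.54 (SE 0.43, edgeR adjusted p = 0.00502). The paternal reads numbered 112 and 47 for wild-type against 8 and 21 for *Zfp57*-/- cells, and wild-type replicate 1 had the most reads of both alleles. The call was lost without wild-type replicate 1 (1.33, edgeR adjusted p = 0.231) and with DESeq2 (1.57, adjusted p = 0.175), and the intervals cover counting error only.

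The 15 genes nearest to *Kdr* with enough allelic reads had a median maternal share of 0.502 for wild-type and 0.488 for *Zfp57*-/- cells. These medians describe the 15 genes together and not each of them, and whether the *Kdr* difference extends to single neighbours was not tested. *Kdr* lies on chromosome 5 (GRCm38, 75932827 to 75978458, minus strand), and these genes span 74997988 to 77286432.

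**Figure D4:**
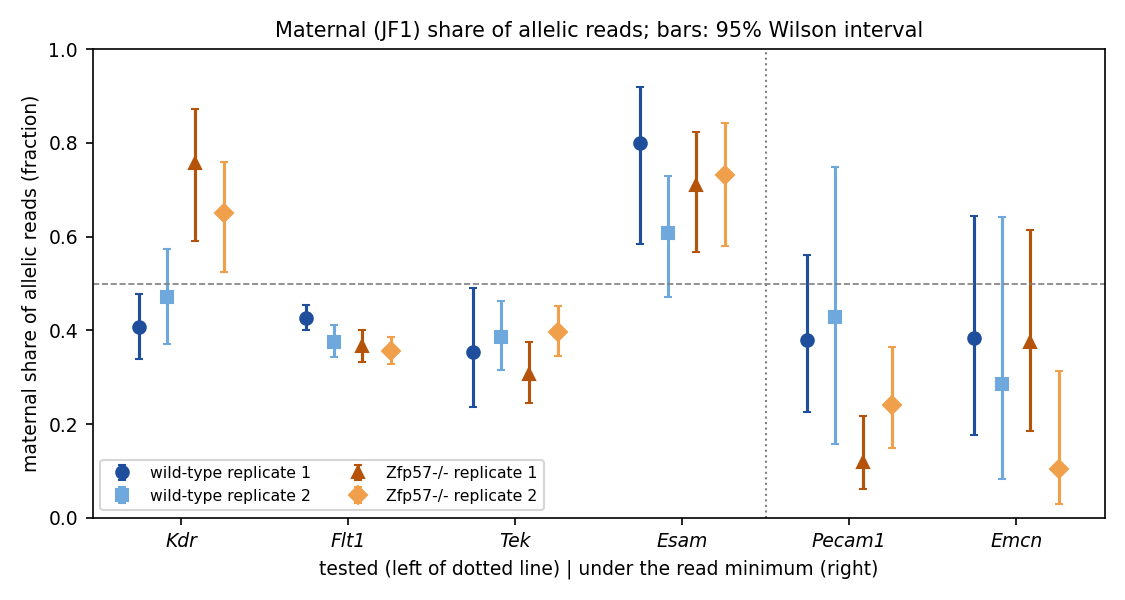
Maternal share of allelic reads (y axis, fraction) in each library with its 95% Wilson interval (bars), for the 4 genes tested and, right of the dotted line, *Pecam1* and *Emcn*, which had too few reads. The *Kdr* shares lie below 0.5 in both wild-type libraries and above it in both *Zfp57*-/- libraries.

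*Flt1*, on the same chromosome, was read with the most precision. Its maternal share was 0.427 and 0.376 in the wild-type libraries, against 0.367 and 0.356 in those of *Zfp57*-/- cells (log2 difference -0.27, SE 0.13, edgeR adjusted p = 0.193). The 15 genes nearest to *Flt1* with enough allelic reads had median maternal shares of 0.435 for wild-type and 0.458 for *Zfp57*-/- cells. *Tek* had maternal shares of 0.353 and 0.387 in the wild-type libraries, against 0.307 and 0.397 in those of *Zfp57*-/- cells (-0.11, SE 0.31, edgeR adjusted p = 0.901). Its reads were 18 and 63 maternal and 33 and 100 paternal in wild-type cells, and 58 and 126 maternal and 131 and 191 paternal in *Zfp57*-/- cells. *Esam* leaned to the maternal allele in every library, with shares of 0.80 and 0.608 in the wild-type libraries, against 0.711 and 0.732 in those of *Zfp57*-/- cells (0.34, SE 0.63, edgeR adjusted p = 0.848).

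*Pecam1* could not be tested, because wild-type replicate 2 had 7 allelic reads. Its maternal share was 0.379 and 0.429 in the wild-type libraries, against 0.119 and 0.241 in those of *Zfp57*-/- cells, and its paternal reads went from 18 and 4 to 59 and 44. *Emcn* had from 7 to 19 allelic reads per library and *Tie1* at most 8. *Cdh5* had 0 allelic reads in every library.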

How the data were processed

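RNA of 4 day 12 cultures was sequenced as stranded, rRNA-depleted paired reads. Per the file headers and the study's methods, the authors trimmed with Trimmomatic 0.36, aligned with STAR 2.5.4a to GRCm38, split reads by parental allele with SNPsplit and deposited counts per gene from featureCounts (Subread 1.6.0, reverse-stranded). The deposited counts are not normalized. In a further table they are given per allele, in 8 columns. The gene lengths deposited beside them were used for FPKM.

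Symbols were matched by Ensembl ID (54721 of 55602 genes). Genes with more than 8 counts in all were tested with edgeR 4.0.16 (robust quasi-likelihood, TMM scaling, Benjamini-Hochberg adjustment over all genes tested, threshold 0.05). Normalized counts are counts divided by the library's effective size relative to the mean. Allelic balance was tested on autosomal genes with a term per library, an allele term and a genotype-by-allele term. Both fits were tested on simulated data. Alternatives were DESeq2 1.42.0, other scalings and filters, a replicate block and each library left out.

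All 8 genes are named, with *Zfp57*, the 5 genes nearest to *Kdr* and, of each list, up to 4 genes per direction with the smallest adjusted p. Genes given for low or unchanged reads, the comparison with *Ttr*, *Gata4*, *Gata6*, *Sox17* and *Foxa2*, and *Actb* were chosen after their values were seen. The genes and lists were chosen with earlier results of these data known. Intervals cover counting error only, since reads were not counted as single molecules.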

Additional observations from a re-analysis of the deposited data

Results flagged for a closer look

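The allelic balance of *Kdr* differed between the genotypes by a test of the difference itself, the genotype-by-allele term. The log2 ratio of maternal to paternal reads was higher by 1.54 in *Zfp57*-/- cells (edgeR adjusted p = 0.00502), with adjusted p from 0.00502 to 0.231 over the fit and its alternatives, and the maternal share was higher in both *Zfp57*-/- libraries than in both wild-type libraries.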

How the results depend on the processing

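The fall of *Kdr* kept its direction under all 11 alternatives. It passed the threshold under the 7 that kept all libraries, with log2 fold changes from -2.59 to -1.48. With a library left out the log2 fold change was -2.28 to -0.66. The number of the 8 genes past the threshold was 1 with *Actb* scaling and 2 to 6 with a library left out. The number of further endothelial genes was 5 with *Actb* scaling, and 3 to 15 with a library left out, and the 8 that rose were 5 with DESeq2. Genes of the other lists past the threshold numbered 51, and 40 to 66 under the alternatives that kept all libraries. The number also moved with a library left out. Of all genes tested 5522 passed, and 3480 to 6984 under the alternatives that kept all libraries. The primitive endoderm genes that rose, 5, were 14 with a replicate block and 13 with no low-count filter. The genotype-by-allele count was 0 with DESeq2 and 0 to 1 with a library left out. The difference of *Kdr* relative to the other 7 genes was -1.70 and -2.64 to -0.76 with a library left out.

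Signs turned for genes that did not pass the threshold with all 4 libraries. With *Actb* scaling *Cdh5* was -0.33 and *Esam* -0.49, and *Esam* was -0.00054 with DESeq2 size factors and -0.00011 with the filterByExpr filter. With a library left out *Cdh5* was -0.50 to 1.11, *Flt1* -0.82 to 0.25 and *Esam* -0.45 to 0.64. The allele difference of *Tek* was 0.12 without *Zfp57*-/- replicate 1 and 0.03 without wild-type replicate 2, and that of *Esam* -0.61 to 0.73 with a library left out. The cause was not tested.

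The libraries share replicate numbers, but same-numbered libraries are not stated to be paired, and the correlation of their deviations was 0.173 over 11869 genes. With a replicate block *Kdr* had a log2 fold change of -1.48, 4 of the 8 genes passed with *Tie1* as the addition, 13 further endothelial genes and 66 genes of the other lists passed, and the genotype-by-allele count remained 1. A lone library left in a genotype is assumed to vary like the others. *Tie1*, *Emcn* and *Pecam1* are limited by their read counts.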

Other observations

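The pattern of *Cdh5* over the 4 libraries was ranked in the same way as that of *Kdr*, and was chosen after its values were seen. Of the primitive endoderm genes compared, *Gata6* stood at rank 12 of 11879 genes (difference 0.16), *Gata4* at 234 (0.29), *Sox17* at 238 and *Foxa2* at 519. *Ttr* of the same list was far from *Cdh5*, at rank 11303. Of the endothelial genes, *Esam* stood at 94 (0.25) and *Tek* at 3953 (0.52). The others were farther, with *Emcn* at 8556, *Tie1* at 9787, *Flt1* at 10101, *Pecam1* at 11086 and *Kdr* at 11193 (1.40).

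*Cdh5* lies on chromosome 8 (104101625 to 104144511). The 15 nearest genes with enough allelic reads, between 95323011 and 108961630, had a median maternal share of 1 for wild-type and 0.428 for *Zfp57*-/- cells, while the medians over the chromosome were 0.510 and 0.485. *Emcn*, on chromosome 3, had neighbours with medians of 0.459 and 0.330, and *Tie1*, on chromosome 4, of 0.622 and 0.490.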
